A study of Mus musculus with 12 samples.

Results

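The genes described here are 10 core components and outputs of the circadian clock, Arntl, Clock, Per2, Per3, Cry1, Cry2, Nr1d1, Nr1d2, Dbp and Tef, which were taken by name from the 39423 genes of the table. They were measured in 3T3-L1 cells, a line of mouse preadipocytes that becomes fat cells under DMI (MDI in the labels), which combines insulin and dexamethasone with 3-isobutyl-1-methylxanthine. Cells received a nontargeting control siRNA (siCtrl, labelled NC) or a siRNA against the arginine methyltransferase PRMT1 (siPRMT1, labelled KD), and mRNA was sequenced after 24 h (day 1) and 72 h (day 3) of DMI. Each of the 4 conditions has 3 libraries, 12 in all. All cells sequenced were given a siRNA and DMI, so no library shows uninduced cells. The knockdown was transient, and it was partial in the RNA of all cells together. Which of the study's PRMT1 siRNAs was used for sequencing is not given in the sources used here.

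The clock is a feedback loop of transcription that runs in nearly every cell. BMAL1, the product of Arntl, pairs with CLOCK and binds E-boxes in the genes of its own repressors, the PER and CRY proteins, and in those of the nuclear receptors REV-ERBα and REV-ERBβ (Nr1d1 and Nr1d2), which repress Arntl through RORE sites that the ROR receptors also bind. DBP and TEF, bZIP factors that act through D-boxes, carry the rhythm to output genes. In fat cells the loop is known for timing lipid metabolism, and in cultured cells dexamethasone is a standard agent for setting its phase. The 2 days are single points, so the levels below carry no phase and no amplitude.

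The members' promoters were searched for the letters of motifs through which the loop acts, and no binding was measured. RefSeq gave 13 promoter windows on GRCm38.p6, from 250 bases before to 50 bases after a start site, for 9 of the 10 members, all but Per2. The shown stretches of 30 bases are every match of 4 motifs, written 5′ to 3′ on the gene's strand with the match in capitals. The motifs, searched on both strands, were the E-box CACGTG (2 members, and 7.15% of all 32851 windows), its variant CACGTT, also read as AACGTG (3 members, 4.68% of windows), the D-box TTATGTAA or TTACGTAA (1 member, 1.06%) and the RORE core TAGGTCA or TGGGTCA (1 member, 6.45%).
Arntl, RORE core (chr7:113207529-113207558, plus strand): gaaggcagaaagTAGGTCAgggacggaggt
Per3, D-box (chr4:151044852-151044881, minus strand): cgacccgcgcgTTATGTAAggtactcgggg
Per3, second D-box (chr4:151044805-151044834, minus strand): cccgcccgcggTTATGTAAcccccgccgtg
Cry1, E-box variant and E-box (chr10:85185107-85185136, minus strand): agaAACGTGaggtgccggtggtCACGTGgg
Cry2, E-box variant (chr2:92434218-92434247, minus strand): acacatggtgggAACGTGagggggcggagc
Nr1d1, E-box variant (chr11:98775388-98775417, minus strand): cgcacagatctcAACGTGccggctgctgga
Tef, E-box in the window of 1 start site (chr15:81802534-81802563, plus strand): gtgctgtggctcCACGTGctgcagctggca
Tef, E-box in the window of another start site (chr15:81811264-81811293, plus strand): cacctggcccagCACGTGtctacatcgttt

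The members' matches do not overlap one another. The matches stand 60 to 205 bases before the start site in Cry1, Cry2, Per3 and Tef, 28 bases before it in Nr1d1 and 30 bases after it in Arntl. The windows of Clock, Nr1d2 and Dbp hold none of these motifs. A cAMP response element (TGACGTCA, in 1.79% of all windows) and the glucocorticoid response element core (ACANNNTGT, in 6.85%) were found in 0 of the 9 members with a window. No match says only that these letters are not in these windows.

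The libraries held between 15116462 and 42357137 counts. Prmt1 ran from 82.86 to 91.28 FPKM (counts scaled by the gene's length and the library's total, not rescaled further) in siCtrl and from 38.62 to 43.84 FPKM in siPRMT1 libraries at day 1, and from 110.62 to 140.25 against 62.02 to 71.66 FPKM at day 3. Its log2 fold change was -1.11 at day 1 (SE 0.0758, adjusted p = 9.85e-04, edgeR) and -0.88 at day 3 (SE 0.0883, adjusted p = 1.22e-05, edgeR), which fits the labels. The 7 adipocyte markers summed to 144.6 to 149.9 FPKM in siCtrl and 109.5 to 123.4 in siPRMT1 libraries at day 1, and to 2176 to 2348 and 1698 to 1940 at day 3. The 6 preadipocyte and fibroblast markers, all above 1 FPKM in each condition, summed to 1281 to 1325 FPKM in siCtrl and 1186 to 1223 in siPRMT1 libraries at day 1, and to 449 to 481.3 FPKM in siCtrl and 565 to 637.5 in siPRMT1 libraries at day 3. The adipocyte markers were thus lower with knockdown at both days. The sum of the preadipocyte and fibroblast markers was lower at day 1 and higher at day 3. Pdgfrb went against this sum at day 1 (means of 17.38 FPKM in siCtrl and 19.41 in siPRMT1 cells). Dlk1 went against it at day 3 (21.54 and 20.59 FPKM), and the other markers followed it. The part of all these markers in the differences below was not tested. In a bulk library, fewer cells of a type and less RNA per cell cannot be told apart. Leukocyte, endothelial, muscle and epithelial markers summed to at most 2.4 FPKM, apart from Krt8, with means of 9.21 and 5.693 FPKM in siCtrl and siPRMT1 cells at day 3, and Ptprc and Myod1 were listed at 0 FPKM in every library. One library stood apart: siCtrl replicate 3 at day 1 departed from the other 2 libraries of its condition by an SD of 0.4525 log2 units over all genes, against 0.2389 to 0.3591 for the same measure in the other 11. For Clock this departure was -1.143, for Nr1d2 -0.5987 and for Dbp 0.5796, while for Arntl it was -0.01015. Values without this library are given beside the results that it moved most.

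All 10 members were measured and passed the filter on low counts in every comparison. In siCtrl cells at day 1 the levels ordered from Tef (14.1 ± 0.898 FPKM, SD, n = 3), Clock (12.04 ± 4.84) and Nr1d1 (11.2 ± 1.63) through Arntl (6.75 ± 0.170), Nr1d2 (6.21 ± 1.53) and Cry2 (5.94 ± 0.942) to Per2 (2.86 ± 0.190), Cry1 (2.19 ± 0.283) and Dbp (1.97 ± 0.445). Among the first 3, among the next 3 and between Cry1 and Dbp, the libraries of neighbours in this order overlapped. Per3 was close to the limit of detection at 0.06 FPKM in each of the 3 libraries, which rests on few counts, and a suffixed copy of it on another scaffold of the assembly took up more counts than the gene itself. The plot of levels in each library shows how the members differ. Cry1, Cry2 and Tef moved mainly with the days. Under knockdown Dbp was lower at both days, Tef at day 1, and Nr1d1 at day 3, while the libraries of Nr1d1 overlapped at day 1. For Per2 all 4 conditions stood apart. Condition means lay close together for Arntl (6.75 to 8 FPKM) and Nr1d2 (5.52 to 6.21 FPKM). The siPRMT1 libraries of day 1 still lay above all other libraries for Arntl, at 7.65 to 8.5 against 6.55 to 7.56 FPKM. Clock and Per3 varied most between replicates, Clock mainly through siCtrl replicate 3 at day 1.

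**Figure D1:**
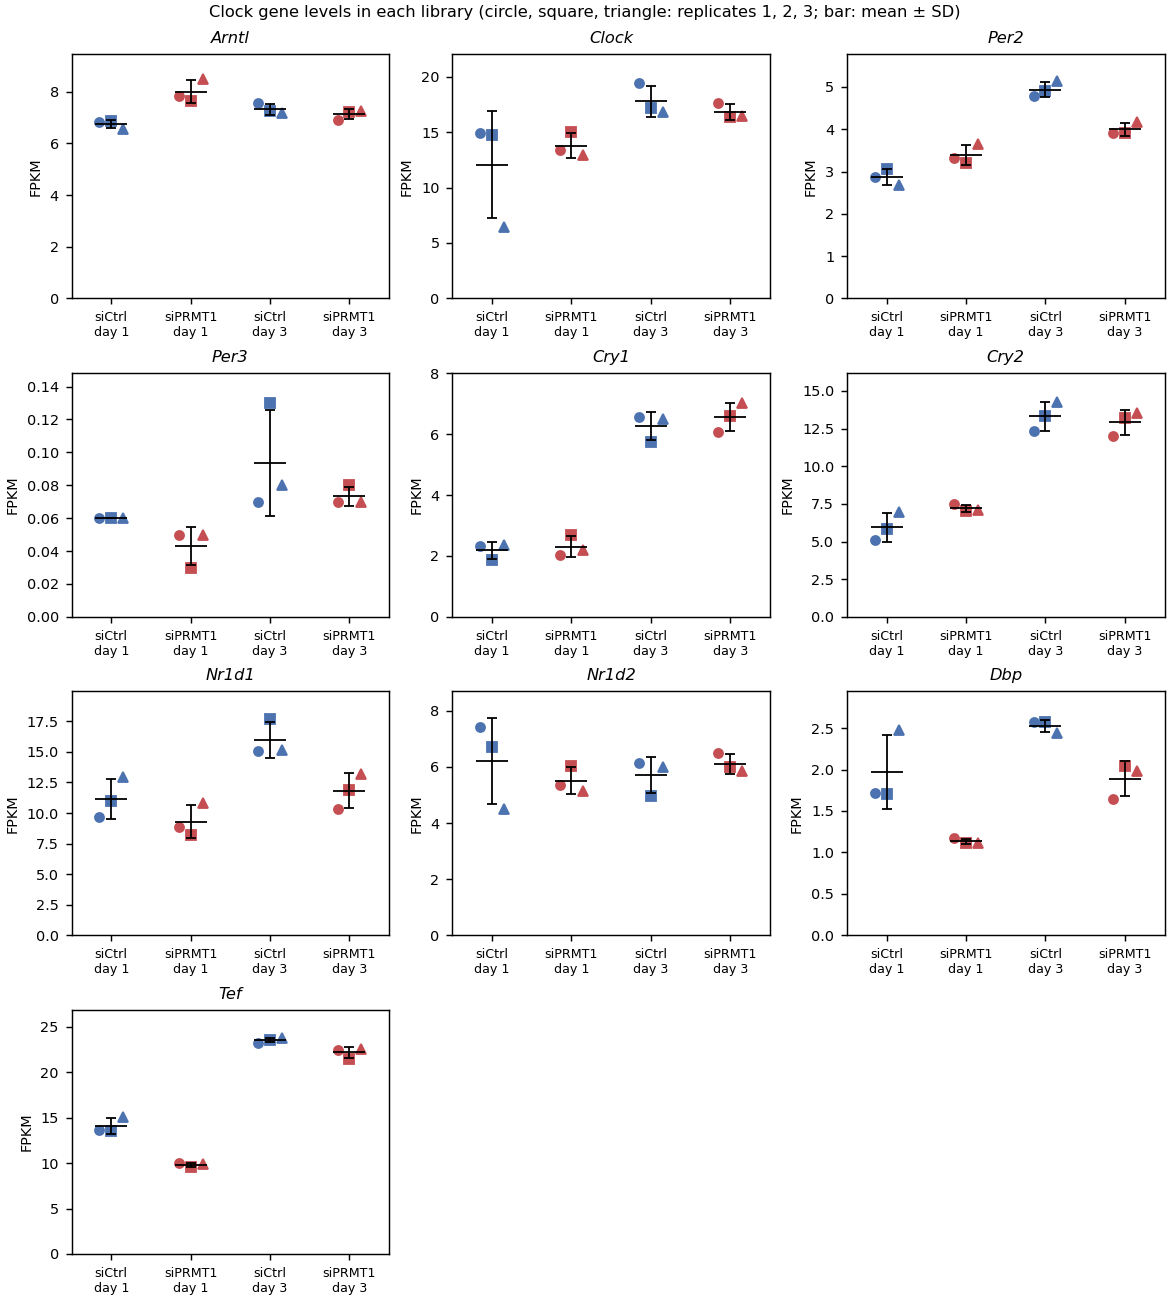
FPKM of the 10 clock genes in each of the 12 libraries (vertical axes, each from 0), with siCtrl in blue and siPRMT1 in red at day 1 and day 3, symbols for replicates and bars for mean ± SD of 3 libraries. Tef and Dbp lie lower in all 3 siPRMT1 than in all 3 siCtrl libraries at day 1, Cry1 and Cry2 lie higher at day 3 than at day 1 under both siRNAs, and Clock has 1 library at 6.46 FPKM in siCtrl cells at day 1.

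The question at each day was whether the knockdown of PRMT1 changed the clock genes. Below, a gene is called when its Benjamini-Hochberg adjusted p over all genes tested is under 0.05 and its log2 fold change exceeds 0.5 in size, and the test throughout is the quasi-likelihood test of edgeR on TMM-normalized counts. TMM factors were 0.9229 to 0.9636 in the siCtrl libraries of day 1 and 1 to 1.033 in the others, so fitted changes against these libraries are slightly lower than the ratio of the FPKM values. The output genes Dbp and Tef were lower in siPRMT1 cells at day 1. No member was called at day 3, where Nr1d1, Dbp and Per2 had an adjusted p under 0.05 and lower levels in siPRMT1 cells, by less than the fold threshold. Of all genes tested at day 3, 16.5% had an adjusted p under 0.05.

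At day 1, 2 of the 10 members were called lower and 0 higher, against 1.61% and 1.95% of the 13689 genes tested. DESeq2 gave the same counts. An unadjusted p under 0.05 was met by 4 members, and the share of all genes that met it was not computed, here and below. An adjusted p under 0.05 was met by 2 of the 10 members and by 7.6% of all genes tested. The siPRMT1 libraries lay entirely above or below the siCtrl libraries for 5 members (Arntl, Per2, Per3, Dbp and Tef, on normalized counts), a share to be read against 31.5% of all genes tested. The median log2 fold change of the members was -0.10, with 5 of 10 negative, against 0.0096 over all genes. In size the members' median change was 0.23, against 0.15 over all genes.

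At day 3, 0 of the 10 members were called in either direction by edgeR and by DESeq2, against 2.84% of 14039 genes called higher and 3.8% called lower. Of the members, 3 had an unadjusted p under 0.05, and these 3 also had an adjusted p under 0.05 (Nr1d1, Dbp and Per2). The groups did not overlap for 4 members (those 3 and Tef), against 34.9% of all genes tested. The members' median log2 fold change was -0.09, with 8 of 10 negative, against 0.0073 over all genes. The share of all genes that were negative was not computed. In size the members' median change was 0.088, smaller than the 0.155 over all genes.

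**Figure D2:**
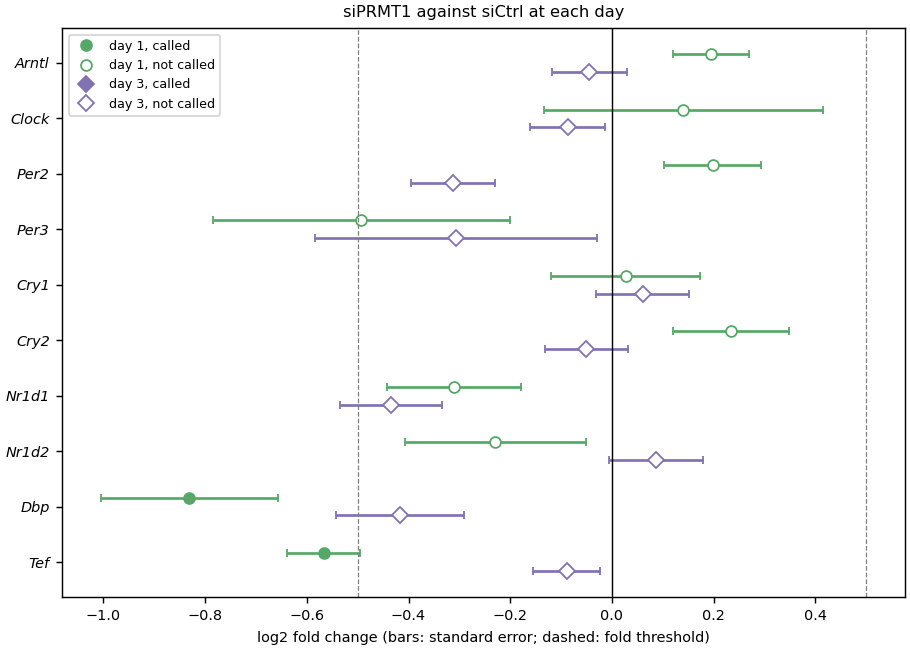
Fitted log2 fold change of siPRMT1 against siCtrl (horizontal axis) for each clock gene at day 1 (green circles) and day 3 (purple diamonds), with bars for the standard error, filled symbols for called genes and dashed lines at the fold threshold. Filled symbols are Dbp at -0.83 and Tef at -0.57, both at day 1, and Per2 lies at 0.20 at day 1 and at -0.31 at day 3.

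Among the members that carry the rhythm to other genes, Tef (chromosome 15, 81802673 to 81826863) encodes a PAR bZIP factor that binds D-boxes, and both of its promoter windows hold the E-box shown above. At day 1 it had 13.64, 13.50 and 15.12 FPKM in siCtrl replicates 1, 2 and 3 and 10.05, 9.62 and 9.85 FPKM in siPRMT1 replicates 1, 2 and 3. The groups did not overlap, and the lowest siCtrl library stood above the highest siPRMT1 library by far more than the spread within either group. Tef fell by 0.57 on the log2 scale, to 0.675 of its siCtrl level (SE 0.0721, adjusted p = 0.00517, edgeR), and the call held in all 6 fits without 1 library, with -0.52 without siCtrl replicate 3. It was lost with limma on log2(FPKM + 1), where the value of -0.48 (adjusted p = 0.0131) lay short of the fold threshold. At day 3 the values were 23.28, 23.54 and 23.73 FPKM in siCtrl and 22.51, 21.48 and 22.61 FPKM in siPRMT1 cells. The siPRMT1 libraries were again all lower, by a log2 fold change of -0.09 that did not pass the test (SE 0.0665, adjusted p = 0.386), with a 95% interval of -0.22 to 0.04. The order of the conditions was thus siPRMT1 day 1, siCtrl day 1, siPRMT1 day 3 and siCtrl day 3, with no overlap between neighbours.

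Dbp (chromosome 7, 45705093 to 45710203), a paralogue of Tef and among the most strongly rhythmic transcripts of many tissues, had 1.72, 1.70 and 2.48 FPKM in siCtrl and 1.17, 1.12 and 1.11 FPKM in siPRMT1 libraries at day 1. The 3 siPRMT1 libraries were nearly equal and all below the siCtrl libraries, of which replicate 3 was the highest. Dbp fell by 0.83 on the log2 scale, to 0.562 of its siCtrl level (SE 0.174, adjusted p = 0.0269, edgeR). Without siCtrl replicate 3 the fall was smaller and the adjusted p too (log2 fold change -0.65, adjusted p = 0.00534). Of the 6 fits with a library left out, 4 no longer called it, namely without siCtrl replicate 2 (adjusted p = 0.0675) and without siPRMT1 replicates 1 (0.0959), 2 (0.096) or 3 (0.118), while the log2 fold change stayed between -0.93 and -0.65. Limma on FPKM did not call it either, at -0.47 on log2(FPKM + 1) (adjusted p = 0.0544) and at -0.72 with a pseudocount of 0.1 (adjusted p = 0.0508). Of the 11 alternatives that kept all libraries, 8 called it. At day 3 Dbp had 2.57, 2.57 and 2.44 FPKM in siCtrl and 1.65, 2.04 and 1.98 FPKM in siPRMT1 libraries. These groups did not overlap either, and the log2 fold change of -0.42 (SE 0.126, adjusted p = 0.0339) did not reach the fold threshold. Exons of Dbp share 539 bases with Sphk2 on the opposite strand, a gene with 11237 counts over the 12 libraries against 1344 for Dbp, and since the strand setting of the counting is not given in the sources used here, reads of the 2 genes there cannot be told apart. Sphk2 had log2 fold changes of 0.28 at day 1 (adjusted p = 0.144) and -0.29 at day 3 (adjusted p = 0.0585).

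Of the repressors of Arntl, Nr1d1 (chromosome 11, 98767932 to 98775377), which encodes the heme-binding receptor REV-ERBα, had 9.67, 10.96 and 12.91 FPKM in siCtrl and 8.89, 8.23 and 10.79 FPKM in siPRMT1 libraries at day 1. The groups overlapped, and the log2 fold change of -0.31 did not pass the test (SE 0.131, adjusted p = 0.189, edgeR). Without siCtrl replicate 3, the highest of its group, it was -0.20 (adjusted p = 0.162). At day 3 it had 15.07, 17.66 and 15.13 FPKM in siCtrl and 10.34, 11.89 and 13.23 FPKM in siPRMT1 libraries. Here the groups did not overlap, the siPRMT1 libraries being lower, with a log2 fold change of -0.43 (SE 0.0999, adjusted p = 0.00793), which is 0.740 of the siCtrl level and short of the fold threshold. Without siPRMT1 replicate 3 at day 3, the highest of its group, Nr1d1 passed the threshold at -0.53. Exons of Nr1d1 overlap 263 bases of Thra on the opposite strand, a gene with 54257 counts over the 12 libraries against 9401 for Nr1d1. Thra had log2 fold changes of -0.32 at day 1 (adjusted p = 0.0934) and 0.06 at day 3 (adjusted p = 0.698), so neither was called.

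Nr1d2 (chromosome 14, 18204056 to 18239106), which encodes the related receptor REV-ERBβ, had 7.43, 6.72 and 4.49 FPKM in siCtrl and 5.36, 6.05 and 5.14 FPKM in siPRMT1 libraries at day 1. Replicate 3 of siCtrl was the lowest of the 6, and with it the groups overlapped (log2 fold change -0.23, SE 0.178, adjusted p = 0.477). Without that library the log2 fold change was -0.42 with an adjusted p of 0.00344, still short of the fold threshold. At day 3 the gene had 6.14, 4.98 and 6.01 FPKM in siCtrl and 6.49, 5.99 and 5.84 FPKM in siPRMT1 libraries, which overlapped (log2 fold change 0.09, 95% interval -0.10 to 0.27). The 4 condition means of Nr1d2 lay between 5.52 and 6.21 FPKM and did not separate beyond the spread of their libraries.

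Among the PER and CRY repressors, Per2 (chromosome 1, 91415977 to 91459402) stood on opposite sides of the control at the 2 days. It had 2.86, 3.05 and 2.67 FPKM in siCtrl and 3.33, 3.2 and 3.66 FPKM in siPRMT1 libraries at day 1, when all siPRMT1 libraries were higher by a margin that did not pass the test (log2 fold change 0.20, SE 0.0954, adjusted p = 0.244, edgeR). At day 3 it had 4.79, 4.90 and 5.13 FPKM in siCtrl and 3.91, 3.90 and 4.18 FPKM in siPRMT1 libraries. All siPRMT1 libraries were then lower, by a log2 fold change of -0.31 (SE 0.0824, adjusted p = 0.0174) short of the fold threshold. The order of the conditions was siCtrl day 1, siPRMT1 day 1, siPRMT1 day 3 and siCtrl day 3, and no 2 neighbours in it overlapped.

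The CRY genes were not called with knockdown at either day. Cry1 (chromosome 10, 85131700 to 85185054), whose window holds the E-box and its variant, had 2.34, 1.86 and 2.36 FPKM in siCtrl and 2.04, 2.68 and 2.21 FPKM in siPRMT1 libraries at day 1. At day 3 it had 6.56, 5.73 and 6.50 FPKM in siCtrl and 6.08, 6.61 and 7.01 FPKM in siPRMT1 libraries. The siRNA groups overlapped at both days, with log2 fold changes of 0.03 (95% interval -0.26 to 0.31) and 0.06 (-0.12 to 0.24). Cry2 (chromosome 2, 92403646 to 92434214) had 5.07, 5.81 and 6.94 FPKM in siCtrl and 7.47, 7.01 and 7.12 FPKM in siPRMT1 libraries at day 1, so that siCtrl replicate 3 lay next to the siPRMT1 libraries. Its log2 fold change was 0.23 with all libraries (SE 0.115, adjusted p = 0.252) and 0.36 without siCtrl replicate 3 (adjusted p = 0.00647). At day 3 Cry2 had 12.32, 13.35 and 14.25 FPKM in siCtrl and 11.99, 13.18 and 13.56 FPKM in siPRMT1 libraries, which overlapped (log2 fold change -0.05, 95% interval -0.21 to 0.11).

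Per3 (chromosome 4, 150997018 to 151044723), the member with D-boxes in its window, had 0.03 to 0.06 FPKM at day 1 and 0.07 to 0.13 FPKM at day 3, from 9 to 30 counts in a library. Its log2 fold changes with knockdown were -0.49 (adjusted p = 0.343) and -0.31 (adjusted p = 0.483). A row with the same name and a suffix, which stands on another scaffold, held 31 to 85 counts in a library. With these counts added, the log2 fold changes were 0.13 (adjusted p = 0.718) and -0.46 (adjusted p = 0.0390), so the direction at day 1 turned with the treatment of the copy, and every value of Per3 is uncertain.

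Neither activator was called with knockdown. Arntl (chromosome 7, 113178470 to 113314126), the gene without which the loop does not run, had 6.84, 6.85 and 6.55 FPKM in siCtrl and 7.85, 7.65 and 8.50 FPKM in siPRMT1 libraries at day 1. The siPRMT1 libraries were all higher, with a log2 fold change of 0.19 that did not pass the test (SE 0.0747, adjusted p = 0.153, edgeR). At day 3 it had 7.56, 7.24 and 7.17 FPKM in siCtrl and 6.91, 7.22 and 7.25 FPKM in siPRMT1 libraries, which overlapped (log2 fold change -0.04, 95% interval -0.19 to 0.10). Clock (chromosome 5, 76209868 to 76305000), the partner of BMAL1, had 14.93, 14.74 and 6.46 FPKM in siCtrl and 13.38, 15.04 and 12.95 FPKM in siPRMT1 libraries at day 1. The low value is that of siCtrl replicate 3, and the log2 fold change of 0.14 (adjusted p = 0.807) became -0.16 (adjusted p = 0.0843) without it. At day 3 Clock had 19.40, 17.16 and 16.78 FPKM in siCtrl and 17.63, 16.34 and 16.42 FPKM in siPRMT1 libraries (log2 fold change -0.09, 95% interval -0.23 to 0.06).

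Whether the effect of the knockdown differed between the days was tested with the interaction over all 12 libraries, given as the change at day 3 minus that at day 1. Of the 10 members 0 were called, against 8.24% of 14612 genes, while 3 had an unadjusted p under 0.05 and DESeq2 called 1 (Per2, at -0.50). Tef and Per2 had an adjusted p under 0.05, as did 12.3% of all genes, and each lay just inside the fold threshold. For Tef the interaction was 0.50 (0.499 before rounding, SE 0.0953, adjusted p = 0.00391), and for Per2 it was -0.49 (SE 0.117, adjusted p = 0.0135). Dbp had 0.43 (adjusted p = 0.220), or 0.22 (adjusted p = 0.390) without siCtrl replicate 3 at day 1, and Arntl -0.22 (adjusted p = 0.155). Without siCtrl replicate 3 at day 1, Nr1d2 (0.49, adjusted p = 0.0133) and Cry2 (-0.42, adjusted p = 0.0158) also came under the adjusted p of 0.05, and with that library they had 0.34 (adjusted p = 0.313) and -0.26 (adjusted p = 0.279). For Nr1d1 and Cry1, intervals of -0.46 to 0.25 and of -0.28 to 0.39 leave room for effects of either sign.

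The ratio of 1 member to another can be read within a library, where scaling cancels. The log2 ratio of Dbp to Arntl FPKM came to -1.992, -2.011 and -1.401 in siCtrl libraries and to -2.746, -2.772 and -2.937 in siPRMT1 libraries at day 1, and -1.557, -1.494 and -1.555 against -2.066, -1.823 and -1.872 at day 3. At both days all siPRMT1 libraries had the lower ratio. The log2 ratio of Nr1d1 to Arntl came to 0.4995, 0.6781 and 0.9789 in siCtrl libraries and to 0.1795, 0.1054 and 0.3442 in siPRMT1 libraries at day 1, and 0.9952, 1.286 and 1.077 against 0.5815, 0.7197 and 0.8678 at day 3. Here too no siPRMT1 library reached a siCtrl library of its day. These ratios are descriptions of genes already shown above, chosen with earlier results of these data known, and were not tested. At day 1 neither Nr1d1 nor Arntl alone passed the test. How many pairs of genes separate in this way was not computed. Taken singly, 31.5% of all genes tested separated at day 1 and 34.9% at day 3.

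**Figure D3:**
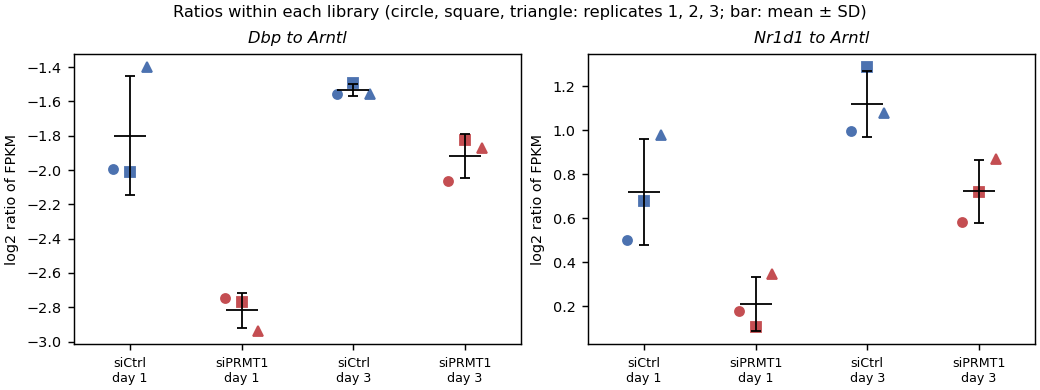
Log2 ratio of FPKM within each library (vertical axes) of Dbp to Arntl (left) and of Nr1d1 to Arntl (right), with siCtrl in blue, siPRMT1 in red, symbols for replicates and bars for mean ± SD of 3 libraries. At each day the siPRMT1 libraries lie below all siCtrl libraries, from -2.937 to -2.746 against -2.011 to -1.401 for Dbp to Arntl at day 1.

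The days were compared within each siRNA to see how the clock genes changed as the cells differentiated. These comparisons use the same libraries as those of the knockdown, so they are not independent of them. In siCtrl cells 4 of the 10 members were called higher at day 3 and 0 lower, against 22.7% of 13829 genes called higher and 20.4% called lower. In siPRMT1 cells 5 were called higher and 0 lower, against 19% and 17.4% of 14224 genes. DESeq2 gave 4 higher and 0 lower under both siRNAs. Of the 5 and 9 members with an unadjusted p under 0.05, Arntl in siPRMT1 cells was the one that was lower at day 3. The same 5 and 9 members had an adjusted p under 0.05, as did 58.9% and 63.4% of all genes. The days did not overlap for 8 members under either siRNA, against 64.4% of all genes in siCtrl and 66.6% in siPRMT1 cells. The members' median log2 fold changes were 0.51 and 0.53, against -0.0042 and 0.0022 over all genes.

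Cry1 rose most of the well-measured members, by a log2 fold change of 1.44 in siCtrl cells (SE 0.131, adjusted p = 8.44e-06, edgeR) and 1.49 in siPRMT1 cells (SE 0.107, adjusted p = 3.53e-08), which is 2.72 and 2.81 times its day 1 level. Cry2 rose by 1.10 in siCtrl (SE 0.130, adjusted p = 5.22e-05) and by 0.83 in siPRMT1 cells (SE 0.0702, adjusted p = 1.83e-07). Tef rose by 0.67 in siCtrl (SE 0.0844, adjusted p = 8.11e-05) and by 1.16 in siPRMT1 cells (SE 0.0595, adjusted p = 1.11e-09), where it started from the lower level shown above. Per2 rose by 0.72 in siCtrl cells (SE 0.1001, adjusted p = 1.58e-04), and its change of 0.22 in siPRMT1 cells (adjusted p = 0.0241) stayed under the fold threshold. Dbp rose by 0.73 in siPRMT1 cells (SE 0.132, adjusted p = 2.84e-04), and in siCtrl cells it had 0.30 (adjusted p = 0.165), or 0.48 without siCtrl replicate 3 at day 1 (adjusted p = 0.00648). All of these calls held in each of the 6 fits without 1 library.

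Of the other members, Nr1d1 had 0.44 in siCtrl (adjusted p = 0.0133) and 0.34 in siPRMT1 cells (adjusted p = 0.0128), and it was called in siCtrl cells at 0.56 (adjusted p = 1.71e-04) without siCtrl replicate 3 at day 1. Clock had 0.49 in siCtrl (SE 0.250, adjusted p = 0.116) and 0.27 in siPRMT1 cells (SE 0.0695, adjusted p = 0.00376). Without siCtrl replicate 3 at day 1 the value of Clock in siCtrl cells was 0.18 (adjusted p = 0.0373), so that library decided most of the larger value. Arntl had 0.05 in siCtrl (adjusted p = 0.657) and -0.18 in siPRMT1 cells (adjusted p = 0.0299). Nr1d2 had -0.20 in siCtrl (adjusted p = 0.350), or -0.39 (adjusted p = 0.00327) without siCtrl replicate 3 at day 1, and 0.13 in siPRMT1 cells (adjusted p = 0.195). Per3 was called in siPRMT1 cells at 0.72 (adjusted p = 0.0423), which 1 of the 6 fits with a library left out also called, and which was lost with the counts of its copy added (0.10, adjusted p = 0.555). In siCtrl cells Per3 had 0.53 (adjusted p = 0.143), which was called with those counts added (0.67, adjusted p = 0.00780). The copy alone had 0.71 in siCtrl (adjusted p = 0.00935) and -0.06 in siPRMT1 cells (adjusted p = 0.737), so which siRNA shows the rise turns on the row used.

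**Figure D4:**
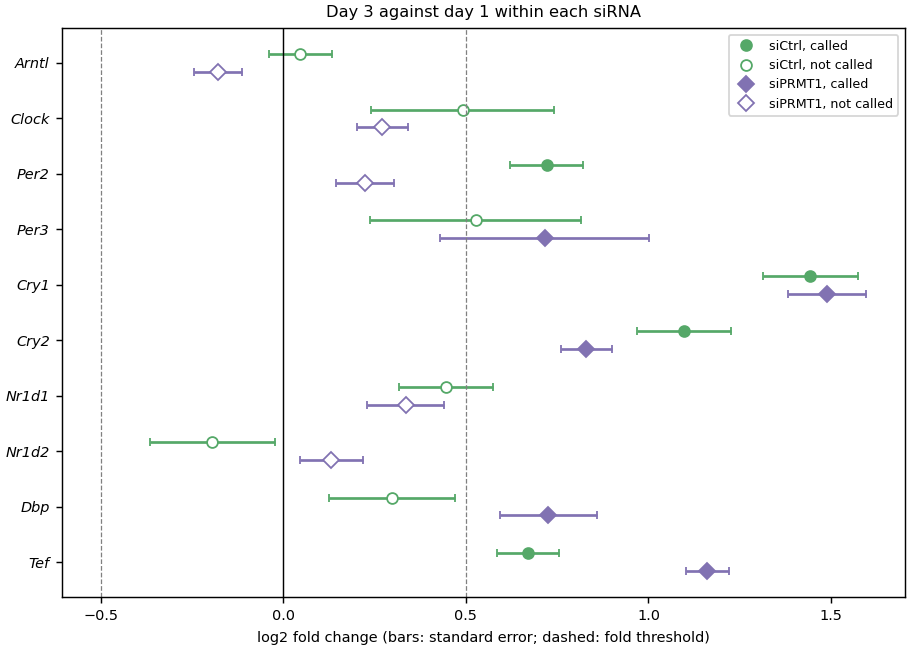
Fitted log2 fold change of day 3 against day 1 (horizontal axis) for each clock gene in siCtrl (green circles) and siPRMT1 cells (purple diamonds), with bars for the standard error, filled symbols for called genes and dashed lines at the fold threshold. Cry1 lies at 1.44 and 1.49, Tef at 0.67 and 1.16, and Per2 at 0.72 and 0.22.

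Replicates differed to unlike degrees among the members. The SD of log2 CPM (counts scaled to the library total, after TMM normalization) within conditions was 0.0453 for Arntl, and 1.18% of 14612 genes had a smaller one. It was 0.0692 for both Per2 and Tef, with 8.36% and 8.32% of genes below. It was 0.149 for Cry2, the same as the median over all genes, and 0.160 for Cry1, 0.189 for Dbp and Nr1d1 and 0.207 for Nr1d2. It was 0.300 for Per3 and 0.340 for Clock, for which 81.4% and 85.4% of genes had a smaller SD. The value of Clock rests mainly on siCtrl replicate 3 at day 1, which departed by -1.143 log2 units from the rest of its condition.

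Over the 12 libraries, the genes whose log2 CPM followed that of Dbp most closely were Csad, Fcgrt and Gm4737 (Pearson r of 0.9838, 0.9792 and 0.9685, over the 12464 genes that average 1 CPM or more). For Nr1d1 they were Jmjd8, Vps26b and Sh2d3c (0.9655, 0.9632 and 0.9614). For Arntl they were Tgif1, Fam96b and 5430416N02Rik (0.9396, 0.9167 and 0.9139). None of these 9 genes is a member or stands on the list of other clock genes, and the points share the 4 conditions and the depth of their libraries.

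A list of 29 other genes of the clock covered further activators and repressors, ROR receptors, D-box factors, the kinases and ubiquitin ligase parts that act on PER and CRY, cofactors and outputs. Of the 26 tested at day 1, 2 (Per1 and Ciart) were called higher and 0 lower by edgeR and by DESeq2, and 4 had an unadjusted p under 0.05, of which the other 2 (Timeless and Noct, at 0.24 and 0.26) were not lower either. At day 3, 0 of 26 were called higher and 4 lower (Ciart, Bhlhe40, Rora and Noct) by edgeR and by DESeq2, and 7 had an unadjusted p under 0.05. In the interaction 4 of 26 were called, all negative (Per1, Ciart, Bhlhe40 and Noct). With the days, 7 of 26 were called higher and 3 lower in siCtrl cells, and 6 higher and 3 lower in siPRMT1 cells. Of all genes tested, 1.95% were called higher and 1.61% lower at day 1, 2.84% and 3.8% at day 3, and 8.24% in the interaction. With the days, 22.7% were called higher and 20.4% lower in siCtrl cells, and 19% and 17.4% in siPRMT1 cells. Npas2, Rorb and Hlf did not pass the filter on low counts in any comparison.

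Per1 (chromosome 11, 69095138 to 69109965), the paralogue of Per2 and a glucocorticoid target in many cells, had 15.86, 16.56 and 18.76 FPKM in siCtrl and 25.41, 24.62 and 27.57 FPKM in siPRMT1 libraries at day 1. It rose by a log2 fold change of 0.55 (SE 0.0792, adjusted p = 0.00785, edgeR), which 3 of the 6 fits with a library left out also called. At day 3 it had 16.07, 16.99 and 16.61 against 14.54, 15.96 and 16.77 FPKM (log2 fold change -0.08, adjusted p = 0.497). Ciart (chromosome 3, 95878500 to 95882242), a repressor of the BMAL1 and CLOCK pair, had 0.84, 0.77 and 0.88 FPKM in siCtrl and 1.79, 1.68 and 2.04 FPKM in siPRMT1 libraries at day 1, a rise of 1.09 (SE 0.141, adjusted p = 0.00540). At day 3 the order was turned, with 2.47, 2.18 and 2.53 FPKM in siCtrl and 1.49, 1.64 and 1.60 FPKM in siPRMT1 libraries, a fall by 0.61 on the log2 scale (SE 0.125, adjusted p = 0.00347). With limma on log2(FPKM + 1) the fall was not called, at -0.40 (adjusted p = 0.0115, and 0.0522 without a filter). In siCtrl cells Ciart rose by 1.46 between the days (adjusted p = 2.02e-05), while in siPRMT1 cells it had -0.23 (adjusted p = 0.122). The interaction was -1.68 (SE 0.177, adjusted p = 3.99e-05) for Ciart and -0.61 (SE 0.113, adjusted p = 0.00321) for Per1. The siPRMT1 levels at day 1 were thus above the siCtrl levels in all libraries for Per1, Per2 and Ciart, and Per2 did not pass the test. Per3, close to the limit of detection, went the other way in all libraries (-0.49, adjusted p = 0.343, edgeR). With the counts of its copy added, Per3 had 0.13 (adjusted p = 0.718, edgeR). Cipc, another repressor of the list, was also lower in all siPRMT1 libraries (-0.11, adjusted p = 0.418, edgeR). On normalized counts the groups overlapped for Cry1, Cry2, Bhlhe40 and Bhlhe41. The groups did not overlap at day 1 for 31.5% of all genes tested.

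Bhlhe40 (chromosome 6, 108660629 to 108666925), which encodes the E-box binding repressor DEC1, had a log2 fold change of 0.03 at day 1 (adjusted p = 0.874) and had 63.96, 57.16 and 60.75 FPKM in siCtrl and 34.86, 32.48 and 34.90 FPKM in siPRMT1 libraries at day 3. It fell by 0.84 on the log2 scale at day 3 (SE 0.0697, adjusted p = 2.29e-06, edgeR), and the interaction was -0.84 (adjusted p = 1.08e-04). Noct (chromosome 3, 51224447 to 51251654), which encodes nocturnin, had 22.22, 21.15 and 25.10 FPKM in siCtrl and 14.70, 14.47 and 14.49 FPKM in siPRMT1 libraries at day 3. Its log2 fold change was -0.66 (SE 0.0791, adjusted p = 4.78e-05), and the interaction was -0.89 (adjusted p = 3.46e-04). Both genes rose between the days, Bhlhe40 by 1.46 in siCtrl and 0.61 in siPRMT1 cells and Noct by 2.40 and 1.501.

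Rora (chromosome 9, 68653407 to 69388246), which encodes a receptor that competes with REV-ERB for RORE sites, had 0.91, 0.82 and 0.43 FPKM in siCtrl and 0.68, 0.67 and 0.60 FPKM in siPRMT1 libraries at day 1. The log2 fold change of -0.22 there did not pass the test (SE 0.241, adjusted p = 0.640, edgeR), and without siCtrl replicate 3, the lowest of the 6, it was -0.48 (adjusted p = 0.00285), short of the fold threshold. At day 3 it had 2.28, 2.1 and 2.09 FPKM in siCtrl and 1.51, 1.14 and 1.30 FPKM in siPRMT1 libraries. It fell by 0.72 on the log2 scale (SE 0.101, adjusted p = 2.05e-04, edgeR). With limma on log2(FPKM + 1) this fall was not called, at -0.45 (adjusted p = 0.0106, and 0.0503 without a filter). The adipocyte markers were lower in the same libraries, and their part in the lower levels of Rora, Bhlhe40, Noct and Ciart was not tested.

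**Figure D5:**
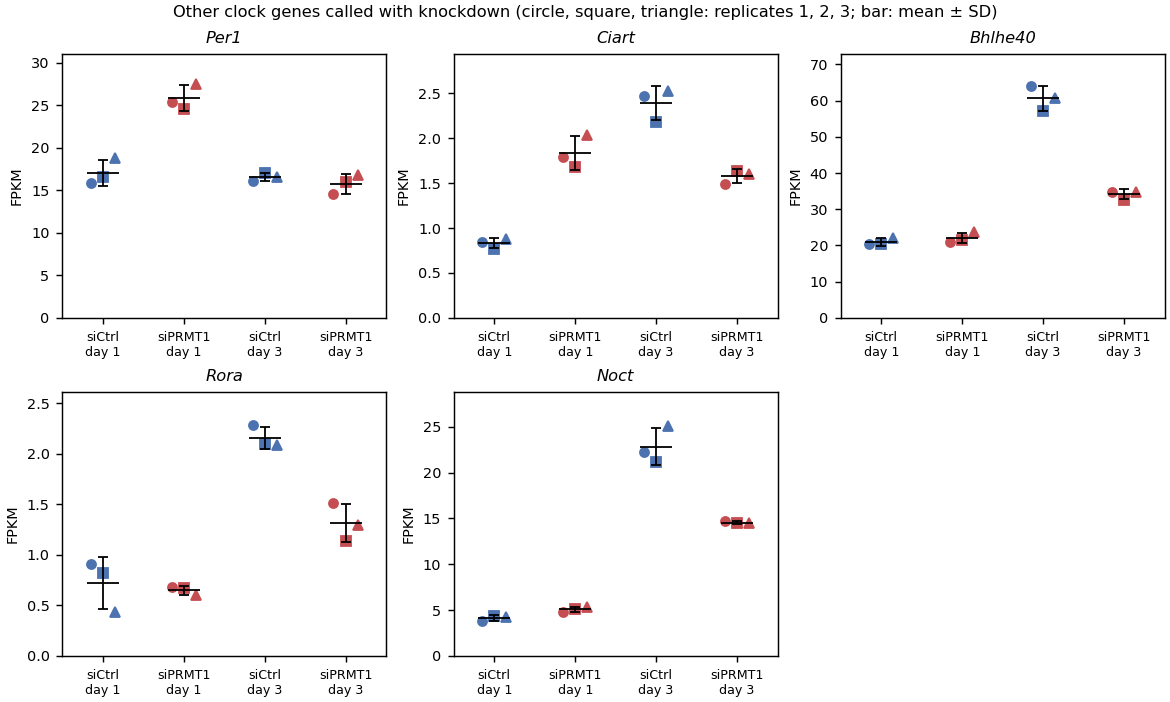
FPKM in each of the 12 libraries (vertical axes, each from 0) of the 5 other clock genes called with knockdown, with siCtrl in blue, siPRMT1 in red, symbols for replicates and bars for mean ± SD of 3 libraries. Ciart lies higher in siPRMT1 than in siCtrl libraries at day 1 (1.68 to 2.04 against 0.77 to 0.88 FPKM) and lower at day 3 (1.49 to 1.64 against 2.18 to 2.53 FPKM), and Bhlhe40, Rora and Noct separate at day 3.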

How the data were processed

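RNA from 3T3-L1 cells (siCtrl and siPRMT1, DMI for 24 h or 72 h, 3 libraries each) was made into libraries with an MGIEasy mRNA kit. The submitters' processing notes name cutadapt 1.11, HISAT2 2.1.0, RSEM 1.2.6 and mm10, with no role for each. Which tool made the counts, and with what strand setting, is not given in the sources used here. The deposited counts are whole and not normalized. FPKM were computed by the authors by dividing these counts by gene length and library total, and recomputed values differed by at most 0.005. Chromosome, start and end are those of GRCm38. All 12 libraries were used.

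Counts were tested with edgeR 4.0.16 (R 4.3.3; TMM, filterByExpr, quasi-likelihood test), with the 6 libraries of each comparison and all 12 for the interaction, and p-values adjusted by the Benjamini-Hochberg method over all genes tested. Standard errors are the size of the log2 fold change over the square root of F, and 95% intervals are a normal approximation from it. The members and the list of other clock genes were chosen with earlier results of these data known, and 1 gene of that list is not reported here. Named are all members, genes of that list called with knockdown or in the interaction, Prmt1, and the 3 genes most like Arntl, Nr1d1 and Dbp. The other genes with an unadjusted p under 0.05 at day 1 and the 3 untested genes of the list were named after their values were seen. So were Cipc, Bhlhe41, Sphk2, Thra, Krt8, Ptprc, Myod1, Pdgfrb and Dlk1. Replicates are separate samples by their labels. Nothing says that they are separate cultures, so the p-values measure the spread between these samples, which may be technical. Replicate pairs differed by a chi-square per gene of 4.144 to 50.64, more than counting error. A count of 0 allows 3 counts, 0.0708 to 0.198 CPM.

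Alternatives were DESeq2 1.42.0, RLE normalization, no filter, at least 10 counts in every library, all 12 libraries in 1 model, the replicate number as a block, no fold threshold, limma 3.58.1 on log2(FPKM + 1) for genes averaging 1 FPKM or more, a pseudocount of 0.1, no FPKM filter, and each library left out. Library weights (limma voom) and Per3 with the counts of its copy were added after seeing the data. On simulated data with 200 changed genes, edgeR recovered 193 of them with 12 false calls at day 1 (13546 genes) and 199 with 7 at day 3 (13861 genes). It recovered 195 with 15 in the siCtrl course (13567 genes), 199 with 11 in the siPRMT1 course (14002 genes) and 177 with 10 in the interaction (14318 genes). The changed genes were drawn from well-counted genes and given a log2 fold change of 1 in size. Recovery of smaller changes, such as those of the members with knockdown, was not tested.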

Additional observations from a re-analysis of the deposited data

Results flagged for a closer look

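The effect of the knockdown differed between day 1 and day 3, by edgeR's test of the interaction over 12 libraries, for 2 of the 10 members by the adjusted p alone, which 12.3% of 14612 genes met. By both thresholds 0 members differed, and 4 of 26 other clock genes did, against 8.24% of all genes. For Per2 the difference was -0.49 (SE 0.117, adjusted p = 0.0135), with all siPRMT1 libraries above siCtrl at day 1 and all below at day 3. For Tef it was 0.50 (SE 0.0953, adjusted p = 0.00391), from -0.57 at day 1 and -0.09 at day 3. Both lay short of the fold threshold, and leaving out 1 library at a time brought Per2 past it in 4 and Tef in 5 of 12 fits. The differences of Ciart (-1.68), Noct (-0.89), Bhlhe40 (-0.84) and Per1 (-0.61) passed both thresholds with all libraries and in each of the 12 fits without 1 library. Without siCtrl replicate 3 at day 1, the library that stood apart, they were -1.75, -0.95, -0.92 and -0.71.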

How the results depend on the processing

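Of 1338 values of single genes under the alternatives, 1256 kept their direction and their side of the threshold. The number of members called at day 1 (2) was 0 with limma on log2(FPKM + 1), with and without a filter, 1 with a pseudocount of 0.1, and 1 to 2 without 1 library. At day 3 (0 called) it was 3 with no fold threshold (16.5% of all genes) and 0 to 1 without 1 library. In the course of siPRMT1 cells (5) it was 9 with no fold threshold (63.4% of all genes) and 3 with limma on log2(FPKM + 1), with and without a filter. In the interaction (0) it was 2 with no fold threshold (12.3% of all genes), 1 with DESeq2, RLE normalization, no filter, at least 10 counts or a pseudocount of 0.1, and 0 to 1 without 1 library. The cause of these shifts was not tested, beyond the fold threshold itself. A pseudocount shrinks changes, most of all those of low genes, and FPKM also lack the TMM factors. The part of each was not tested. Deviations from the condition means had r = -0.0319, 0.129 and 0.215 between same-numbered libraries at day 1, and 0.161, 0.0791 and -0.0204 at day 3. Between libraries of different numbers r ran from -0.258 to 0.214 at day 1 and from -0.182 to 0.125 at day 3. With 3 libraries in a condition, these r cannot decide whether same-numbered libraries were handled together. With the replicate number as a block, 2, 0, 5, 4 and 0 members were called at day 1, at day 3, in the siCtrl course, in the siPRMT1 course and in the interaction, where Clock entered the siCtrl course at 0.58 and Per3 left the siPRMT1 course at 0.72. With all 12 libraries in 1 model, Cry1 (-0.0050) and Bhlhe40 (-0.0056) turned at day 1. With library weights, Clock turned at day 1 (-0.12) and in the interaction (0.014). With the counts of its copy, Per3 turned at day 1 (0.13) and in the interaction (-0.57), and it was -0.0033 with limma on log2(FPKM + 1) without a filter. In the interaction, Cry1 was -0.0073 with a pseudocount of 0.1. Without 1 library, values at day 1 ran from -0.16 to 0.33 for Clock, -0.12 to 0.087 for Cry1, -0.029 to 0.060 for Bhlhe40 and -0.48 to 0.0011 for Rora, and for Cry2 at day 3 from -0.12 to 0.0033. Arntl in the siCtrl course ran from -0.012 to 0.041. In the interaction, Clock ran from -0.41 to 0.056, Per3 from -0.038 to 0.46, Cry1 from -0.020 to 0.18 and Nr1d1 from -0.25 to 0.0098. Differences in Per3, at 9 to 30 counts, are limited by depth.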
